A study of Mus musculus with 8 samples.

Results

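The homeobox genes Hoxa3, Hoxa5, Hoxa7, Hoxa9 and Hoxa10 of the Hoxa cluster and Meis1, which encodes a DNA-binding partner of HOX proteins, were followed in common lymphoid progenitors, the marrow precursors of the B, T and natural killer cell lineages. The members are defined by gene symbol and not by a threshold on these values, but they were proposed with earlier results of these data known. They made up 6 of the 18193 genes named by a single-gene probe set on the array (an Affymetrix mouse array), and 14 of 34945 such probe sets carried their names. A probe set is a group of short oligonucleotides read together, and there were 4 for Hoxa3, 3 for Meis1, 2 each for Hoxa5, Hoxa9 and Hoxa10, and 1 for Hoxa7. The cells came from bone marrow of C57BL/6 mice aged 10 to 13 weeks with 3 genotypes, namely E2A knockout (E2A KO, 4 arrays), HEB knockout (HEB KO, 2 arrays) and wild type (WT, 2 arrays). Cells of all 3 genotypes were sorted, per the labels, as lineage-negative, FLT3+, CD127+ and LY6D-. E2A, the product of Tcf3, and HEB, the product of Tcf12, are E proteins, helix-loop-helix transcription factors that pair with each other, bind E-boxes and are needed for lymphoid lineages. Each array held cells pooled from several marrows, with at least 2 sorts per genotype, so p-values reflect variation between pooled samples, which is not variation between single mice. The sources used here do not give how the alleles were made or whether each of the 4 E2A KO arrays had its own sort.

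Hox genes lie in clusters and encode homeodomain transcription factors whose order along the chromosome follows the order in which they are used along the body axis. In blood formation the genes of the Hoxa cluster, Hoxa9 above all, are active in stem cells and early progenitors and are switched off as cells mature. MEIS1 belongs to the TALE homeodomain proteins, binds DNA together with HOX and PBX proteins, and is required for stem cells. Mice that lack Hoxa9 have fewer lymphoid progenitors, and HOXA9 with MEIS1 transforms myeloid progenitors when overexpressed.

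Because the deleted factors bind E-boxes, the 250 bases before the transcription start were taken from RefSeq (GRCm38.p6) for the 3 genes whose values are described at most length. The capitals mark matches to CANNTG, the E-box core, which reads the same on both strands. The windows were chr11:19018970-19019219 for Meis1, chr6:52204588-52204837 for Hoxa5 and chr6:52227371-52227620 for Hoxa9, all on the minus strand and written 5′ to 3′.
Meis1: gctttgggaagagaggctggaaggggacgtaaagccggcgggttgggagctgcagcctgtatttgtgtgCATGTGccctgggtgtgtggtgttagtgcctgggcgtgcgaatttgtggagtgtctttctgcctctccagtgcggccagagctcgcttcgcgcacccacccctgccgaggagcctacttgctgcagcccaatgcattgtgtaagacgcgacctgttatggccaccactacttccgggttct
Hoxa5: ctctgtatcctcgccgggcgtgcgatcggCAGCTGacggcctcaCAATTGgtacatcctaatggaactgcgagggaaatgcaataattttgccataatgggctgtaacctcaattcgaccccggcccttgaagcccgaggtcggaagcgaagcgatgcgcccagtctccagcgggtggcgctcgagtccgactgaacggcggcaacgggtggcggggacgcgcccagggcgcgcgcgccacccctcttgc
Hoxa9: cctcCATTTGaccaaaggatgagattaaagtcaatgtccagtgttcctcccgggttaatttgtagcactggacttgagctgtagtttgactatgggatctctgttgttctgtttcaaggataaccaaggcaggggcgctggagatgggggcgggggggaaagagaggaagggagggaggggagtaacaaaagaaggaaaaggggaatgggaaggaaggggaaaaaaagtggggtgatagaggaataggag
The Meis1 and Hoxa9 windows held 1 match each and the Hoxa5 window held 2, of which 1 was CAGCTG. The window of Hoxa3 held 1 match, also CAGCTG, while the window of Hoxa7 and both windows of Hoxa10 held 0. Such a match stood in 66.2% of the 32841 promoter windows of this length, and CAGCTG in 13%. CACCTG, present in 17.2% of all windows, had 0 matches in the 7 windows of the 6 genes, and so did TGATNNAT (both strands), a PBX-HOX motif found in 7.69% of all windows. TGACAG (both strands), the core bound by MEIS proteins and found in 15.9% of all windows, had 1 match, in the window of Hoxa3, on the strand opposite to the one read and overlapping its CAGCTG. A match is a string of letters and not a measured binding site.

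Expression was measured as RMA intensity per probe set, and all values below are log2 of the deposited intensity. The targeted genes matched the labels. Tcf3 read 4.28, 3.71, 4.05 and 3.90 on the E2A KO arrays, against 7.76 and 7.98 on the WT arrays, and Tcf12 read 7.10 and 6.49 on the HEB KO arrays, against 8.85 and 8.76 on the WT arrays. Transcripts of the sorted surface proteins were present on every array, with Flt3 between 10.12 and 11.05 and Il7r, which encodes CD127, between 7.89 and 10.91. Ly6d, the transcript of the protein that was gated out, varied within each genotype, at 6.75, 4.48, 4.26 and 6.88 in E2A KO, 7.52 and 3.63 in HEB KO, and 3.53 and 7.83 in WT cells. The label names a gate on the protein and the array reads the transcript, so a high value does not by itself go against the label. Ly6d lay between 6.75 and 7.83 on E2A KO 1, E2A KO 4, HEB KO 1 and WT 2, while the other 4 arrays read 3.53 to 4.48. The differences of Meis1, Hoxa5 and Hoxa9 are therefore also given without those 4 arrays, a choice made after the values had been seen that leaves 1 array each in HEB KO and WT. With them left out the fit had 1 residual degree of freedom, and 0 genes passed the limma threshold in the 3 comparisons. Array medians were 14.14 to 15.41 as linear intensities, no arrays were identical, and the number of arrays limits the precision. The spiked hybridization controls were brighter on the E2A KO arrays, at 11.52 to 12.62, than on the HEB KO arrays, at 10.32 and 11.60, and the WT arrays, at 11.40 and 10.29, apart from overlap between E2A KO 1 and HEB KO 2. For testing, a gene was represented by its brightest probe set and a gene was kept when the probe set exceeded the median intensity of 2 or more arrays. This retained 11957 genes and 5 of the 6 members. Hoxa10 was not retained.

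Meis1 was lower on every E2A KO array than on any other array at its brightest probe set, while HEB KO and WT arrays overlapped. At probe set 1450992_a_at Meis1 read 7.74, 7.27, 7.36 and 7.76 in E2A KO cells, 8.46 and 8.83 in HEB KO cells, and 8.79 and 8.68 in WT cells. Among all tested genes, all E2A KO arrays lay below all WT arrays at 15.4% and below all HEB KO arrays at 21.6%. The Meis1 gap between the highest E2A KO array and the lowest array of the other genotypes was wider than the spread within any genotype.

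**Figure D1:**
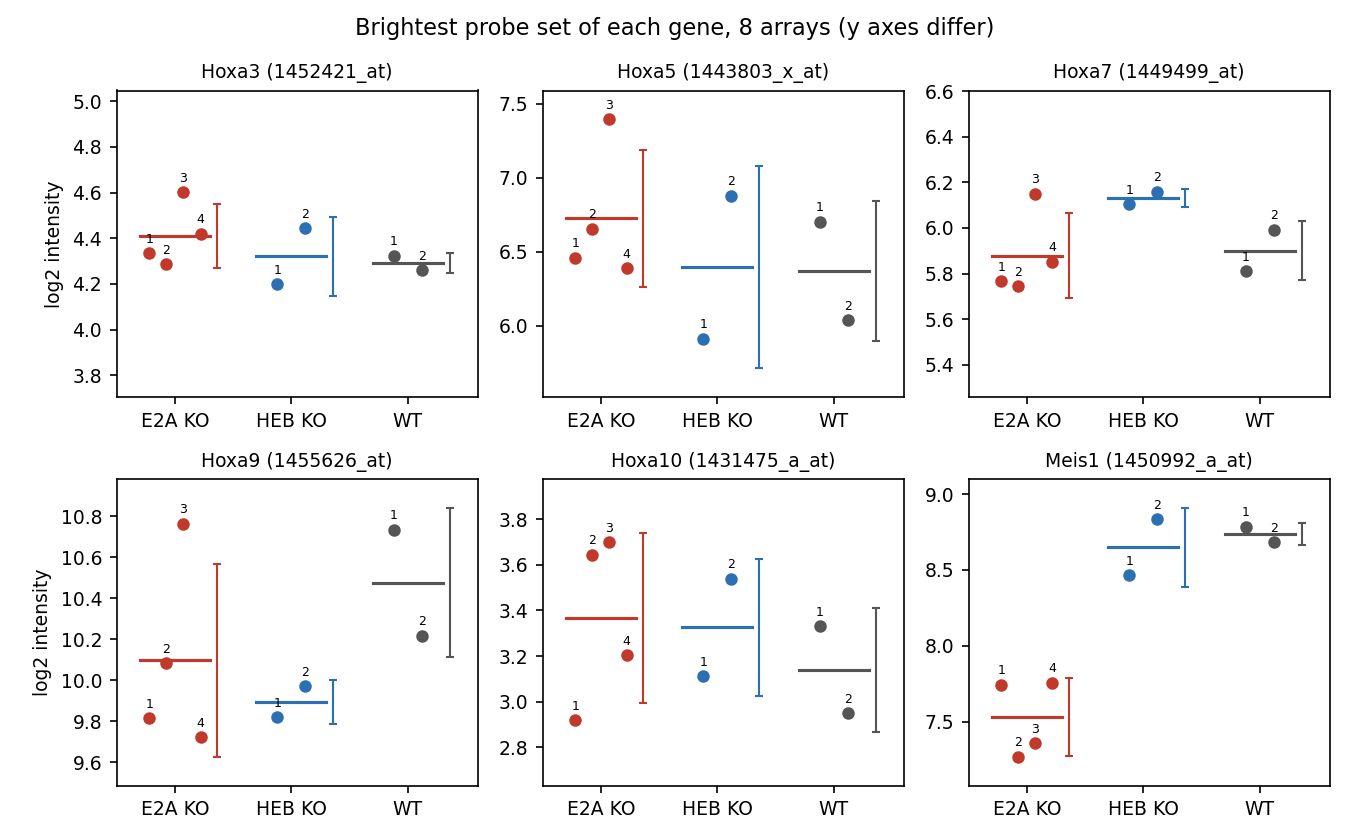
Log2 intensity of the brightest probe set of each of the 6 genes on 8 arrays. Points are arrays with their replicate number, horizontal lines are genotype means and vertical bars to their right are ± 1 SD. Each panel has its own y axis. Meis1 lies between 7.27 and 7.76 in E2A KO cells and between 8.46 and 8.83 on the 4 other arrays, while the genotypes overlap at the other genes or differ by less.

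The mean was 7.53 ± 0.26 (SD, n = 4) in E2A KO cells, 8.65 ± 0.26 (n = 2) in HEB KO cells and 8.74 ± 0.07 (n = 2) in WT cells. With limma fitted over all 11957 genes, the E2A KO minus WT difference was -1.20 (SE 0.24, 95% interval -1.74 to -0.67), a 2.30-fold lower intensity. Its unadjusted p was 0.000658, rank 95 of the 11957 genes, and its Benjamini-Hochberg adjusted p was 0.0811, so Meis1 missed the threshold of 0.05. Against HEB KO the E2A KO difference was -1.12 (SE 0.24, interval -1.65 to -0.58, adjusted p = 0.117). Without the 4 arrays with high Ly6d the E2A KO difference was -1.47 (SE 0.41, adjusted p = 0.962) against WT and -1.52 (SE 0.41, adjusted p = 0.890) against HEB KO. The log2 ratio of the 3′ to the 5′ actin control probe sets, a sign of RNA quality and amplification, was 4.41, 4.78, 4.12 and 3.86 in E2A KO, 3.37 and 3.58 in HEB KO, and 4.45 and 3.84 in WT cells. E2A KO arrays were thus above HEB KO arrays and overlapped WT arrays, and the part of this ratio in the Meis1 values was not tested. The HEB KO minus WT difference was -0.09 (SE 0.27, interval -0.70 to 0.53, adjusted p = 1), an interval that leaves room for a change in either direction. In these bulk samples fewer cells that express a gene and less RNA per cell cannot be told apart.

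An E2A-intact reference of both other genotypes was added after the data had been seen, because HEB KO and WT overlapped at this probe set. E2A KO against the mean of the WT and HEB KO means gave Meis1 a difference of -1.16 (SE 0.19, interval -1.60 to -0.72) with a limma adjusted p of 0.0264. Under that contrast 229 genes, 1.92% of those tested, passed the threshold, and arrays of 4 against 4 did not overlap in the lower direction for 10% of genes. Since the contrast was chosen after the Meis1 values were known, its p is a description of these arrays.

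The other Meis1 probe sets did not share this pattern. Probe set 1443260_at read 7.52, 8.09, 9.21 and 7.34 in E2A KO cells, 6.71 and 7.95 in HEB KO cells, and 8.97 and 7.47 in WT cells. Probe set 1459423_at read 5.06, 4.14, 7.03 and 5.47 in E2A KO cells, 5.08 and 4.12 in HEB KO cells, and 8.14 and 5.13 in WT cells. At both, WT 1 and E2A KO 3 were the highest arrays, and E2A KO and WT overlapped. In a limma fit over all 34945 probe sets, 1443260_at differed by -0.18 (SE 0.63, adjusted p = 0.924) and 1459423_at by -1.21 (SE 0.94, adjusted p = 0.651) between E2A KO and WT. Against HEB KO the E2A KO values of 1443260_at and 1459423_at were higher by 0.71 (SE 0.63) and 0.82 (SE 0.94), opposite in sign to the -1.12 of 1450992_a_at. Averaging the 3 probe sets therefore turned the Meis1 difference between E2A KO and HEB KO to 0.14 and left -0.87 between E2A KO and WT. The sources used here do not say which Meis1 transcripts each probe set reads.

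**Figure D2:**
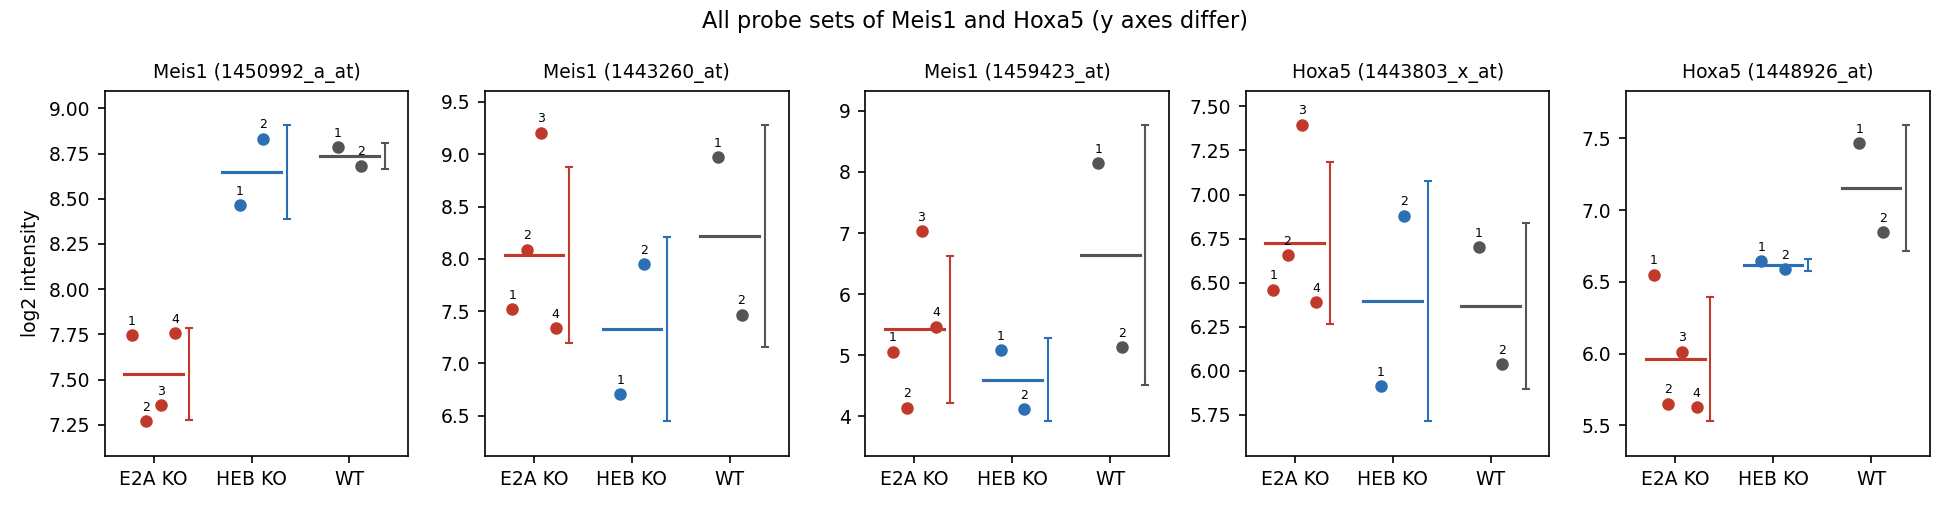
Log2 intensity on 8 arrays at the 3 probe sets of Meis1 and the 2 of Hoxa5, with replicate numbers, genotype means (lines) and ± 1 SD (bars). Each panel has its own y axis. The E2A KO arrays lie below all WT arrays at Meis1 1450992_a_at and Hoxa5 1448926_at, while the genotypes overlap in the other panels apart from the HEB KO arrays at Meis1 1459423_at, which lie below both WT arrays.

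Hoxa5, a central gene of the cluster that is also active in haematopoietic progenitors, gave unlike readings at its 2 probe sets. At 1448926_at it read 6.55, 5.65, 6.01 and 5.63 in E2A KO cells, 6.64 and 6.59 in HEB KO cells, and 7.47 and 6.85 in WT cells. The 3 genotypes did not overlap there, with E2A KO lowest and WT highest, though the highest E2A KO array (6.55) was close to the lowest HEB KO array (6.59). Over all probe sets, all E2A KO arrays lay below WT at 9.43% and below HEB KO at 12.7%, and HEB KO below WT at 13.6%. The difference was -1.20 between E2A KO and WT (SE 0.30, interval -1.88 to -0.51, unadjusted p = 0.00368), and its limma adjusted p over all probe sets was 0.217. It was -0.54 between HEB KO and WT (SE 0.34, adjusted p = 1) and -0.66 between E2A KO and HEB KO (SE 0.30, adjusted p = 0.425). At the brighter 1443803_x_at, Hoxa5 read 6.46, 6.66, 7.40 and 6.39 in E2A KO cells, 5.91 and 6.88 in HEB KO cells, and 6.70 and 6.04 in WT cells. All genotypes overlapped at this probe set, whose suffix marks probes that can also match other sequences. Its differences were 0.36 for E2A KO minus WT (SE 0.38), 0.03 for HEB KO minus WT (SE 0.44) and 0.33 for E2A KO minus HEB KO (SE 0.38), with adjusted p of 0.700, 1 and 0.662, and the first was 0.69 without WT 1 and 0.023 without WT 2. Without the 4 arrays with high Ly6d the differences at 1443803_x_at were 0.32, 0.18 and 0.15 in the same order. On the arrays then kept, 1448926_at read 5.65 and 6.01 in E2A KO, 6.59 in HEB KO and 7.47 in WT cells. The sign of the Hoxa5 difference between E2A KO and WT thus depended on the probe set, and the positive difference was smaller than its SE.

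Hoxa9, the Hoxa gene best known for its part in haematopoietic progenitors, overlapped between E2A KO and WT cells. At its brightest probe set, 1455626_at, it read 9.82, 10.08, 10.76 and 9.72 in E2A KO cells, 9.82 and 9.97 in HEB KO cells, and 10.73 and 10.22 in WT cells. E2A KO 3 stood with WT 1 at the top, and both HEB KO arrays were below both WT arrays, as at 11.4% of tested genes. Its means were 10.10 ± 0.47 (SD, n = 4) in E2A KO cells, 9.90 ± 0.11 (n = 2) in HEB KO cells and 10.48 ± 0.36 (n = 2) in WT cells. The limma differences were -0.38 (SE 0.32, interval -1.10 to 0.34, adjusted p = 0.621) for E2A KO and -0.58 (SE 0.37, interval -1.41 to 0.25, adjusted p = 1) for HEB KO, each against WT. Both rested on which WT array was kept, at -0.12 and -0.32 without WT 1 and at -0.64 and -0.84 without WT 2. Without the 4 arrays with high Ly6d they were -0.31 and -0.76. E2A KO minus HEB KO was 0.20 (SE 0.32, adjusted p = 0.756). At 1421579_at Hoxa9 read 6.11, 5.83, 7.25 and 6.53 in E2A KO cells, 5.88 and 6.20 in HEB KO cells, and 6.54 and 6.27 in WT cells. Here too E2A KO 3 was highest and the HEB KO arrays lay below the WT arrays, as at 13.6% of all probe sets. The difference was 0.03 between E2A KO and WT (SE 0.36) and -0.37 between HEB KO and WT (SE 0.42).

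Hoxa7 and Hoxa3 differed little between the genotypes. Hoxa7, a mid-cluster gene, had a single probe set, 1449499_at, that read 5.77, 5.74, 6.15 and 5.85 in E2A KO cells, 6.10 and 6.16 in HEB KO cells, and 5.81 and 5.99 in WT cells. Both HEB KO arrays were above both WT arrays, as at 23.4% of tested genes, with a difference of 0.23 (SE 0.24, adjusted p = 1), and E2A KO and WT overlapped with a difference of -0.02 (SE 0.21, interval -0.49 to 0.45, adjusted p = 0.966). Hoxa3, which lies nearer the other end of the cluster and is known for its role in pharyngeal and thymus development, read 4.33, 4.29, 4.60 and 4.42 in E2A KO cells, 4.20 and 4.44 in HEB KO cells, and 4.32 and 4.26 in WT cells at 1452421_at. Its differences against WT were 0.12 (SE 0.20, interval -0.34 to 0.57) for E2A KO and 0.03 (SE 0.23, interval -0.50 to 0.56) for HEB KO, within the spread between arrays. Its other 3 probe sets were dim, between 2.39 and 3.90.

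Hoxa10, the neighbour of Hoxa9 that is also active in early blood cells, was dim at both probe sets. Probe set 1431475_a_at read 2.92, 3.65, 3.70 and 3.20 in E2A KO cells, 3.11 and 3.54 in HEB KO cells, and 3.33 and 2.95 in WT cells. Probe set 1446408_at read between 2.46 and 3.07 in E2A KO cells, 2.49 and 2.51 in HEB KO cells, and 2.32 and 2.45 in WT cells. Neither exceeded the array median on any array, and Hoxa10 was not tested.

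Set side by side, 0 of the 5 tested members passed the threshold in any of the 3 comparisons. The background share of tested genes that passed was 0.443% for E2A KO against WT, 0% for HEB KO against WT and 0.117% for E2A KO against HEB KO. At an unadjusted limma p under 0.05 there was 1 member, Meis1, in each of the comparisons of E2A KO with WT and with HEB KO, against 13.4% and 16.5% of all genes, and 0 members for HEB KO against WT, against 2.61%. The median difference of the 5 members was -0.02 for E2A KO against WT, where that of all tested genes was -0.05. It was 0.03 for HEB KO against WT beside 0.09 over all genes, and 0.09 for E2A KO against HEB KO beside -0.16. In the fit over all probe sets 0 of the 14 passed in the 3 comparisons, against 0.0973%, 0% and 0.00286% of all probe sets. E2A KO and WT arrays did not overlap at 3 of 14, with E2A KO lower at 2 and higher at 1 (Hoxa10 1446408_at), where 9.43% and 13% of all probe sets were apart in these directions. HEB KO arrays lay below WT arrays at 5 of 14 and above them at 2, against 13.6% and 20.2% of all probe sets. E2A KO lay below HEB KO at 2 and above at 1, against 12.7% and 11%. The 3 comparisons share arrays, so their values are not independent.

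**Figure D3:**
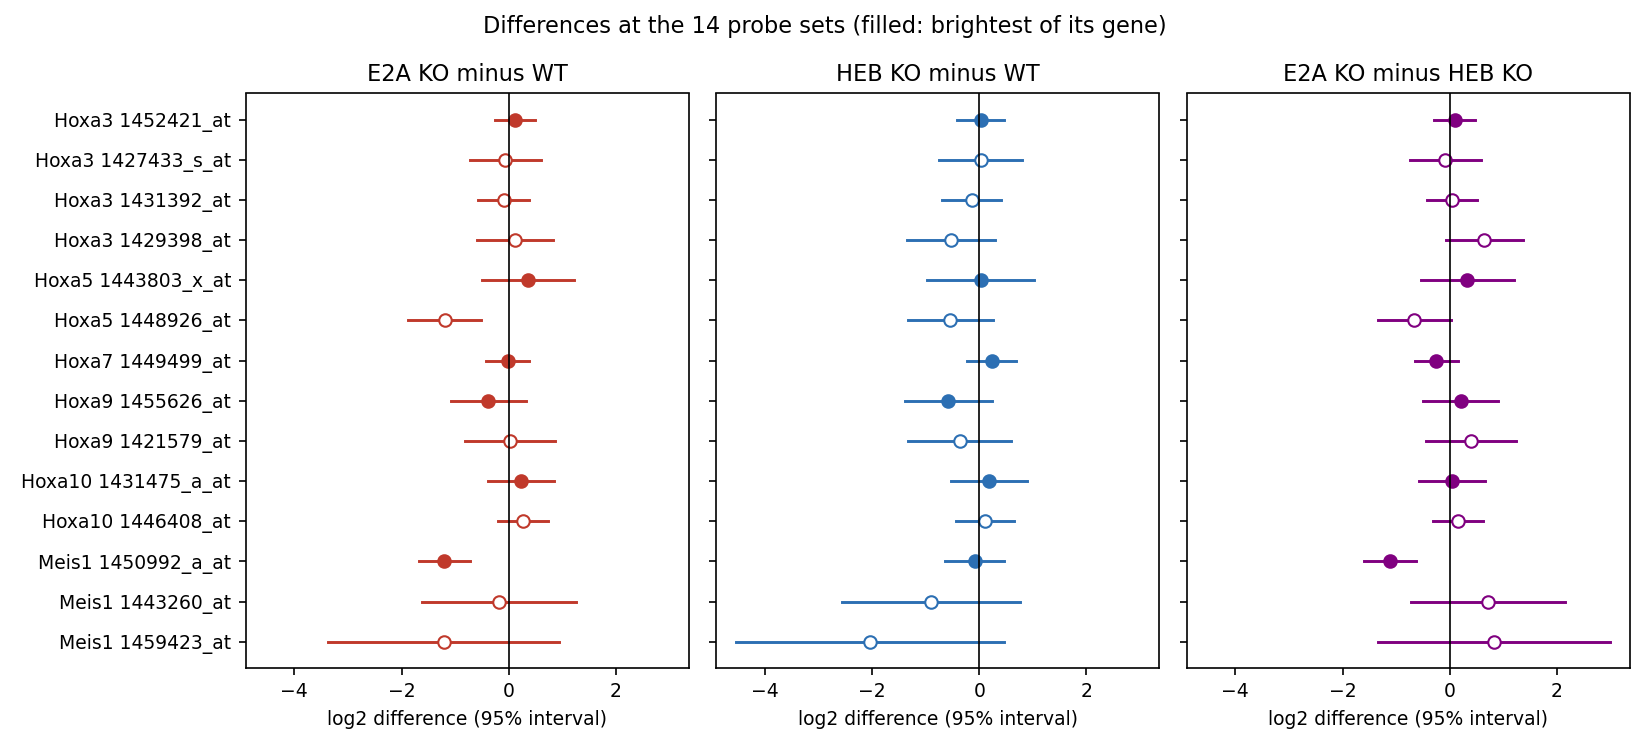
Log2 difference with its 95% interval at the 14 probe sets in the 3 comparisons, from the fit over all probe sets. Filled points are the brightest probe set of each gene. For E2A KO minus WT the intervals of Meis1 1450992_a_at (-1.20) and Hoxa5 1448926_at (-1.20) lie below 0, for E2A KO minus HEB KO that of Meis1 1450992_a_at (-1.12), and all other intervals include 0.

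Some of the spread at these genes followed single arrays rather than genotype. WT 1 and E2A KO 3 were the 2 highest arrays at 5 of the 14 probe sets, namely both of Hoxa9, the Meis1 probe sets 1443260_at and 1459423_at, and Hoxa3 1429398_at. Over all single-gene probe sets this pair was highest at 3.71%, and over all tested genes at 2.38%. The pattern was noticed after the values had been seen and is a description only. Without those 2 arrays the Meis1 difference at the brightest probe set was -1.09 between E2A KO and WT (SE 0.33, adjusted p = 0.338) and the Hoxa9 difference was -0.34 (SE 0.29). Hoxa9 then differed by -0.02 between E2A KO and HEB KO, against 0.20 with all arrays. The root mean square spread about a gene's own mean over the 8 arrays was 0.609 for Meis1, 0.442 for Hoxa5, 0.380 for Hoxa9, 0.164 for Hoxa7 and 0.119 for Hoxa3, beside a median of 0.343 over all tested genes.

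The nearest patterns to Meis1 over the 8 arrays were found by the root mean square difference of log2 values, each gene centred on its own mean. They were Serpinb6a, a serine protease inhibitor (0.132), Phf14, a PHD finger protein (0.168), Dipk1b (0.169), Stim2, a calcium sensor of the endoplasmic reticulum (0.174), and Atp6v1g2, a subunit of the vacuolar proton pump (0.175). Dipk1b read 8.23, 7.96, 8.06 and 8.05 in E2A KO cells, 9.24 and 9.25 in HEB KO cells, and 9.13 and 9.29 in WT cells. All 5 genes were lower on each E2A KO array than on any other array, as Meis1 was, with E2A KO minus WT differences between -1.14 and -0.83 and adjusted p between 0.051 and 0.161. Genes chosen for nearness on these 8 arrays share the member's pattern by that choice, here and for Hoxa9 below. Their values describe the selection and are not a separate result. The nearest to Hoxa9 were Atp10a, a phospholipid flippase (0.125), Kmt2d, a histone H3 methyltransferase (0.137), Phf1, a Polycomb-associated protein (0.163), Pnisr, a nuclear serine- and arginine-rich protein (0.167), and Alg6, a glucosyltransferase of N-glycosylation (0.177). Pnisr read 8.63, 9.21, 9.88 and 8.42 in E2A KO cells, 8.89 and 9.20 in HEB KO cells, and 9.85 and 9.27 in WT cells, with E2A KO 3 and WT 1 highest as for Hoxa9. Meis1 and Hoxa9 are commonly named together, but at their brightest probe sets neither was among the 5 nearest of the other (Pearson r = 0.03 over 8 arrays). This depended on the Meis1 probe set. Hoxa9 1455626_at correlated at 0.89 with Meis1 1443260_at and at 0.78 with Meis1 1459423_at, where WT 1 and E2A KO 3 were also highest.

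**Figure D4:**
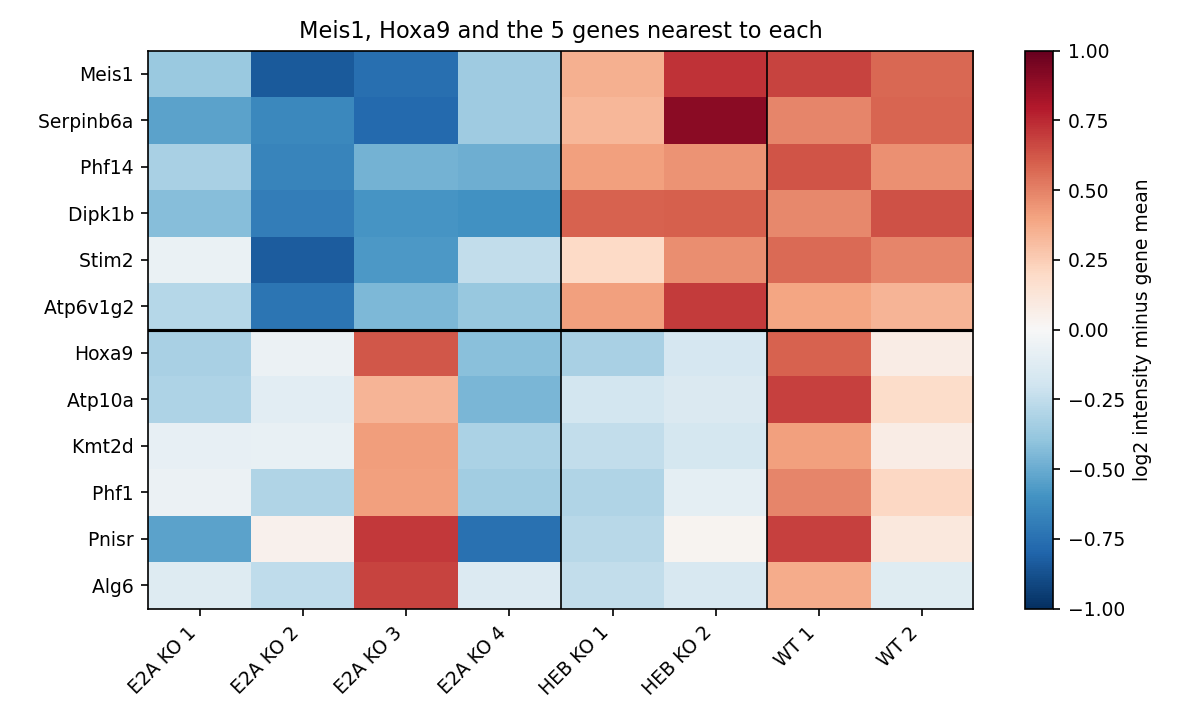
Log2 intensity minus the gene's own mean over 8 arrays for Meis1, Hoxa9 and the 5 genes nearest to each, in colour from -1 to 1. Meis1 and its neighbours are low on the 4 E2A KO arrays and high on the 4 others. Hoxa9 and its neighbours are highest on E2A KO 3 and WT 1.

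Other Hox genes were mostly dim. Of the 6 other genes of the Hoxa cluster, 4 had a single-gene probe set and 0 of these passed the filter, with values between 2.58 and 3.56. Of 28 genes of the Hoxb, Hoxc and Hoxd clusters, 24 were on the array and 5 were tested, namely Hoxb3, Hoxb4, Hoxc6, Hoxc9 and Hoxd9. None of the 5 passed the threshold in the 3 limma comparisons, and 0 had an unadjusted p under 0.05. Hoxb4, known for expanding stem cells when overexpressed, read 4.93, 5.28, 5.06 and 5.49 in E2A KO cells, 5.44 and 5.70 in HEB KO cells, and 5.74 and 5.65 in WT cells. Its E2A KO arrays were all below its WT arrays, as at 15.4% of tested genes (-0.51, SE 0.23, adjusted p = 0.379), while its other probe set differed by 0.06.

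The TALE homeobox list, which includes HOX partners such as the PBX proteins, had 0 of 8 tested genes past the threshold in each comparison. Pbx2, a HOX cofactor, read 5.97, 5.23, 4.85 and 5.29 in E2A KO cells, 6.23 and 5.96 in HEB KO cells, and 6.15 and 6.20 in WT cells. E2A KO was below WT on every array, as at 15.4% of tested genes (-0.84, SE 0.30, unadjusted p = 0.0216, adjusted p = 0.287). Of the 8 genes 1, Pbx2, had an unadjusted p under 0.05 there, against 13.4% of all tested genes. Pknox1 differed by -0.63 (SE 0.43) and Pbx4 by -0.28 (SE 0.30) between E2A KO and WT, within the spread between arrays. Against WT, HEB KO values were higher by 0.48 for Pbx4 (SE 0.35), by 0.38 for Tgif1 (SE 0.38) and by 0.18 for Tgif2 (SE 0.26), all with an adjusted p of 1. The list's median difference was -0.08 for E2A KO and 0.12 for HEB KO.

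Chromatin regulators that keep Hox genes active include the MLL methyltransferase Kmt2a and its partners. Of 19 tested, 0 passed the threshold in each comparison. At an unadjusted p under 0.05 there were 1 for E2A KO against WT, 1 for HEB KO against WT and 3 for E2A KO against HEB KO. The shares of all tested genes were 13.4%, 2.61% and 16.5% in the same order. Kmt2a read 7.11, 6.50, 7.13 and 7.63 in E2A KO cells, 7.83 and 7.95 in HEB KO cells, and 7.78 and 7.92 in WT cells. All E2A KO arrays were below all others, as at 10% of tested genes, with a difference from WT of -0.76 (SE 0.30, adjusted p = 0.327). Aff4, a scaffold of the super elongation complex, read 6.42, 6.23, 6.35 and 6.65 in E2A KO cells, 7.37 and 7.31 in HEB KO cells, and 6.40 and 6.68 in WT cells. It was highest on the HEB KO arrays (0.80 against WT, SE 0.24, unadjusted p = 0.00941, adjusted p = 1), but its other 2 probe sets went the other way, at -0.64 and -0.51. Aff1, Kdm6b and Mllt1 differed from WT by -0.41, -0.73 and 0.48 in E2A KO cells and by -0.36, -0.30 and 0.71 in HEB KO cells. The median of the list was -0.15 for E2A KO and 0.13 for HEB KO against WT, beside -0.05 and 0.09 over all genes.

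The Polycomb proteins, which hold Hox genes silent, had 0 of 20 tested members past the threshold in each comparison. For E2A KO against WT 3 were lower and 1 was higher at an unadjusted p under 0.05, against 13.4% of all tested genes in either direction. Bmi1, a Polycomb subunit needed for stem cell renewal, read 8.11, 8.35, 8.45 and 8.39 in E2A KO cells, 8.89 and 8.24 in HEB KO cells, and 8.95 and 8.93 in WT cells. Bmi1 differed by -0.62 (SE 0.24, adjusted p = 0.321) and Mtf2, which helps recruit the H3K27 methyltransferase complex, by -0.55 (SE 0.20, adjusted p = 0.288) between E2A KO and WT. Pcgf2 was higher on all arrays of both knockouts than in WT cells, by 0.62 in E2A KO (SE 0.26, adjusted p = 0.350) and by 0.76 in HEB KO cells (SE 0.30, adjusted p = 1), but its other, dim probe set differed by -0.04 and -0.11. Over all probe sets, all E2A KO arrays were above WT at 13% and all HEB KO arrays at 20.2%. Cbx8 differed by 0.69 and Jarid2 by -0.51 between HEB KO and WT, each with an adjusted p of 1.

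Genes known as targets of HOXA9 or MEIS1 were tested at 21 of 22 members. Of these 1, the lymphoid cytokine receptor gene Il7r, fell in E2A KO cells against WT, where 0.443% of all tested genes passed. Il7r read 8.56, 7.89, 8.73 and 9.04 in E2A KO cells, 10.88 and 10.50 in HEB KO cells, and 10.51 and 10.91 in WT cells. All E2A KO arrays were below all others, as at 10% of tested genes. The E2A KO minus WT difference was -2.15 (SE 0.32, adjusted p = 0.0330), and for E2A KO minus HEB KO it was -2.13 (SE 0.32, adjusted p = 0.0652). For E2A KO against WT 17 of the 21 had a negative difference, the same count as for HEB KO against WT. The median for E2A KO against WT was -0.56, beside -0.05 over all tested genes. Of the 21, 8 had an unadjusted limma p under 0.05, all lower, against 13.4% of all tested genes in either direction. Syk, a kinase of antigen receptor signalling and a target of MEIS1 in leukaemia, read 8.65, 7.64, 7.34 and 8.49 in E2A KO cells, 10.04 and 9.87 in HEB KO cells, and 9.21 and 9.98 in WT cells. Its difference from WT was -1.57 (SE 0.40, adjusted p = 0.147) in E2A KO cells. Ebf1, the B-lineage transcription factor, read 2.40, 2.32, 3.06 and 2.49 in E2A KO cells, 5.79 and 3.46 in HEB KO cells, and 4.36 and 6.90 in WT cells, a difference of -3.06 (SE 0.75, adjusted p = 0.131). The E2A KO values of Ebf1 lay below the array medians. WT 2 and HEB KO 1, the higher arrays of their genotypes, were also high for Ly6d. Other Ebf1 probe sets differed by -0.86, -0.01, -1.59 and 0.06 between E2A KO and WT. Il7r and Ebf1 are also known targets of E2A, so the list is not specific to HOXA9 or MEIS1, and Meis1 was not tested as their regulator.

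Against WT, HEB KO cells had 0 of the 21 targets past the limma threshold. At an unadjusted p under 0.05 there was 1, Msi2, against 2.61% of all tested genes. Msi2, an RNA-binding protein of stem cells, read 9.77 and 9.99 in HEB KO cells, against 10.85 and 10.34 in WT cells (-0.71, SE 0.30, adjusted p = 1), and its 7 other probe sets were lower by -1.69 to -0.01. Bcl2, a survival gene, was at 8.26 and 8.33 in HEB KO cells, against 10.14 and 8.56 in WT cells (-1.06, SE 0.55), but 2 of its other probe sets were higher in HEB KO cells, by 0.82 and 0.22. Camk2d differed by -0.71 (SE 0.31). Of the 21 differences 17 were negative, and the list's median was -0.18, beside 0.09 over all genes.

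**Figure D5:**
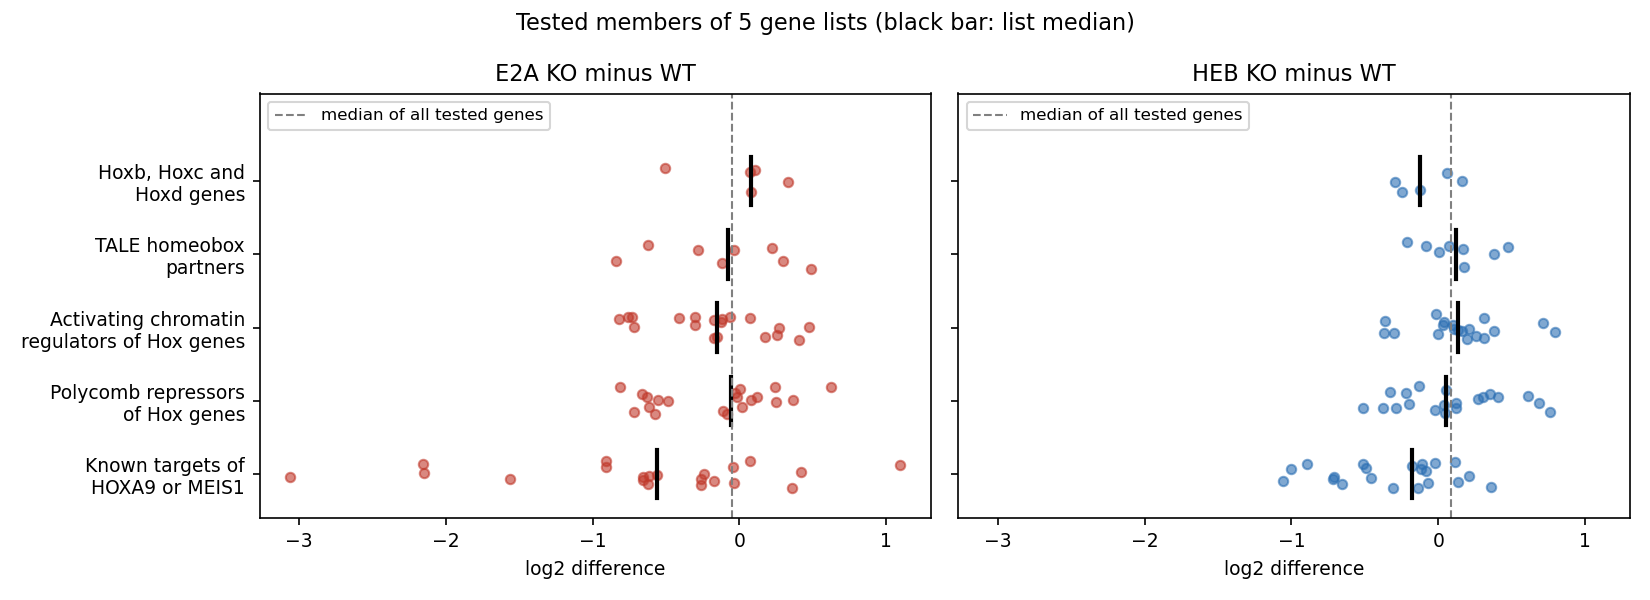
Log2 differences of the tested members of 5 gene lists (points), the list median (black bar) and the median of all tested genes (dashed line), for E2A KO minus WT and HEB KO minus WT. The targets of HOXA9 or MEIS1 have a median of -0.56 for E2A KO minus WT, and the medians of the other 4 lists lie between -0.15 and 0.08.

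Marker lists of the cell types the gate could hold were read beside the Meis1 result. The mean log2 intensity of 12 tested stem and multipotent progenitor genes was 5.77, 5.22, 5.81 and 5.53 on the E2A KO arrays, 5.88 and 5.89 on the HEB KO arrays, and 6.12 and 6.03 on the WT arrays. With the gene Kit included it was lowest on all 4 E2A KO arrays, and 0 of the 12 genes passed the limma threshold for E2A KO against WT. At an unadjusted p under 0.05 there were 4 lower, against 13.4% of all tested genes in either direction. Of the 12 differences 9 were negative, while Egr1 (0.53), Esam (0.47) and Gata2 (0.23) were higher in E2A KO than in WT cells. Kit, the stem cell factor receptor, read 5.38, 4.05, 3.98 and 4.81 in E2A KO cells, 6.50 and 5.77 in HEB KO cells, and 6.61 and 6.66 in WT cells (-2.08, SE 0.41, adjusted p = 0.0823), while its other probe set differed by -0.09. This Kit difference was the lowest of the stem list. The list means include it, and their order rests on it. With Kit taken out of the means, E2A KO 3 lies above both HEB KO arrays, so the E2A KO arrays are then not all lowest. The list of 14 lymphoid progenitor and sort markers had means of 7.30 to 7.97 in E2A KO, 9.49 and 8.72 in HEB KO, and 8.90 and 9.73 in WT cells. Of these 14 genes 4 fell in E2A KO against WT, where 0.443% of all tested genes passed. They were the thymus-homing receptor Ccr9 (-5.28, SE 0.42), Notch1 (-2.09, SE 0.27), Cd93 (-1.34, SE 0.19) and Il7r. At other probe sets the difference was -0.63 for Notch1, -1.69 for Il7r, -2.18 to 0.33 for Cd93 and -3.29 to 0.008 for Ccr9. The B-lineage list had means of 4.71 to 5.03 in E2A KO, 6.49 and 5.61 in HEB KO, and 5.67 and 7.00 in WT cells, highest on WT 2 and HEB KO 1. Of its 12 tested genes 2 fell in E2A KO against WT, Cd72 (-1.56, SE 0.23) and Foxo1 (-2.19, SE 0.35), beside the same 0.443%. Other Foxo1 probe sets differed by -0.96, -0.65 and 0.12. Granulocyte and monocyte markers averaged 5.99, 6.16, 7.67 and 5.68 in E2A KO, 7.53 and 8.53 in HEB KO, and 6.42 and 6.97 in WT cells. The T-lineage list averaged 4.65 to 4.93 in E2A KO, 5.39 and 5.06 in HEB KO, and 4.85 and 5.19 in WT cells. The part of these markers in the Meis1 and Hoxa values was not tested. With the hybridization control signal as a covariate the Meis1 difference between E2A KO and WT was -1.31 (SE 0.34, limma adjusted p = 0.529). Without the covariate it was -1.20 (SE 0.24, adjusted p = 0.0811). That signal was higher on every E2A KO array than on either WT array, so the fit cannot separate it from genotype, and its part in the Meis1 values cannot be told.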

How the data were processed

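The deposited intensity values are RMA values per probe set on a linear scale, per the submitters' processing notes and the values themselves. The sources used here give neither the RMA release nor the probe grouping. RNA was amplified over more than 1 round before hybridization, per the labels' protocols, which favours the 3′ ends of transcripts. The values were put on the log2 scale with no further scaling. Of 45101 probe sets, 64 were controls, 932 named several genes and 9160 had no name. The brightest probe set by mean stood for each gene, and 6236 genes below the filter were not tested. All 8 arrays entered 1 model in limma (version 3.58.1, under R 4.3.3) with 3 genotype means, and p-values were two-sided and Benjamini-Hochberg adjusted over all tested genes at 0.05. A further fit covered all single-gene probe sets. "Rose", "fell" and "passed" refer to this threshold. The scripts were tested on simulated data.

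The members, lists and tests were chosen with earlier results of these data known, so no p was adjusted over a list alone. Named were all members, genes of any list that passed, the 3 genes with the smallest p in each comparison with WT for the Hox, partner, chromatin and target lists but not for the cell type lists, the sort markers, and the 5 nearest patterns of Meis1 and Hoxa9 without predicted genes. Promoter windows came from a RefSeq table (GRCm38.p6) that held all 6 members. Alternatives were other filters, scalings, probe set rules, variance models, covariates and left-out arrays. Those added after seeing the values were the pooled reference, the crossed pairing, WT 1 and E2A KO 3 left out together, and the 4 arrays with high Ly6d left out together. The main model did not pair arrays by replicate number, and whether the numbers pair them could not be told.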

Additional observations from a re-analysis of the deposited data

Results flagged for a closer look

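Among 25 groups of the 4 E2A KO values, 14 probe sets and 11 list means, 2 held an array far from the other 3 by Dixon's ratio, and chance gives about 1 in 20. At Hoxa3 1429398_at, E2A KO 3 read 3.55 while the other E2A KO arrays read between 3.08 and 3.15 (ratio 0.848), at a level that was below the array median on all arrays. The mean of the erythroid, megakaryocyte and mast cell markers was 5.84 on E2A KO 1, against 5.04 to 5.15 on the other E2A KO arrays (ratio 0.870), and Meis1 on that array, at 7.74, was within the range of the other E2A KO arrays.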

How the results depend on the processing

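Under all alternatives run, 0 members passed the threshold in the 3 comparisons, except that with WT and HEB KO together as reference 1 member, Meis1 (-1.16), and 229 genes passed. The Meis1 difference between E2A KO and WT stayed between -1.47 and -0.87 with adjusted p between 0.0264 (the pooled reference) and 0.962 (without the 4 arrays with high Ly6d). HEB KO against WT had 0 genes past the threshold throughout. The count of all genes, 53 for E2A KO against WT and 14 for E2A KO against HEB KO, was 34 and 1 with every probe set as a feature, 91 and 42 with trend and robust variances, 1 and 1 with the hybridization control covariate, 6 and 3 without WT 1 and E2A KO 3, and 0 and 0 without the 4 arrays with high Ly6d. Leaving out 1 array gave 2 to 104 and 1 to 21 genes. For E2A KO against WT the counts were 2 without WT 2 and 7 without WT 1, 20, 35 and 38 without E2A KO 2, 1 and 4, 26 without either HEB KO array, and 104 without E2A KO 3. For E2A KO against HEB KO the counts were 1 without E2A KO 1 or either HEB KO array, 2 without E2A KO 2, 4 without E2A KO 4, 6 without either WT array and 21 without E2A KO 3. Where 1 array remained in a genotype it was assumed to vary like the others. Under cyclic loess 70% of 10 genes called between E2A KO and HEB KO were lower, against 85.7% of 14. The median of all genes for E2A KO minus HEB KO was -0.16, -0.26 after median centring and -0.03 after cyclic loess. With the replicate number as a block 12 and 3 genes passed, and the block rested on shared numbers only. Deviations of WT 1 and HEB KO 1 from their genotype means correlated at -0.277, and those of WT 1 and HEB KO 2 at 0.277. With 2 arrays in each genotype these are 1 value with its sign turned, so they cannot show whether the numbers pair the arrays. With the numbers of WT and HEB KO crossed 8 and 0 genes passed. Signs turned for Meis1 between E2A KO and HEB KO, whose difference was -1.12, and otherwise for differences of at most 0.36 in size. For E2A KO against WT these were Hoxa7 (0.061, cyclic loess, and 0.14, without the 4 arrays), Hoxa5 (-0.42, mean of probe sets, and -0.48, covariate) and Hoxa3 (-0.093, covariate). For HEB KO against WT these were Hoxa5 (-0.087, cyclic loess, -0.26, mean of probe sets, and -0.044, covariate) and Meis1 (0.047, without the 4 arrays). For E2A KO against HEB KO these were Hoxa3 (-0.0037, median centring, -0.10, covariate, and -0.012, replicate block), Hoxa5 (-0.16, mean of probe sets, and -0.44, covariate), Meis1 (0.14, mean of probe sets) and Hoxa9 (-0.22, covariate, and -0.021 without WT 1 and E2A KO 3). Leaving out 1 array also turned signs, over ranges of -0.11 to 0.068 for Hoxa7 in E2A KO against WT, of -0.093 to 0.15 for Hoxa3, -0.46 to 0.51 for Hoxa5 and -0.27 to 0.098 for Meis1 in HEB KO against WT, and of -0.033 to 0.21 for Hoxa3, -0.15 to 0.81 for Hoxa5 and -0.021 to 0.33 for Hoxa9 in E2A KO against HEB KO. Without a turn it moved Hoxa5 (0.023 to 0.69), Hoxa9 (-0.64 to -0.12) and Hoxa3 (0.054 to 0.16) in E2A KO against WT, and Hoxa9 (-0.84 to -0.32) and Hoxa7 (0.14 to 0.32) in HEB KO against WT. The Meis1 and Hoxa5 turns under the mean of probe sets come from probe sets that differ in sign, and for the others the cause was not tested. With 2 arrays in HEB KO and in WT the median SE over all genes was 0.323 for their difference and 0.280 for comparisons with E2A KO, and dim probe sets such as those of Hoxa10 limit what can be seen.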
